A study of Homo sapiens with 12 samples.

Results

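Transcription upon mTOR inhibition was compared with that of untreated cells over all 11548 genes of the expression table in 3 human cell lines of hepatocellular carcinoma (HCC), Hep3B, Huh7 and MHCC97H. The comparison took the 6 of 12 libraries that were untreated or treated with AZD8055 and paired them by cell line, and it covered every gene of the table; the rules by which single genes are named used their values. AZD8055 was given at 100 nM in DMEM with FCS, for 48 h in Hep3B and Huh7 and for 24 h in MHCC97H, so that effects of exposure time and of the cell line cannot be told apart. The other 6 libraries were of the same cell lines with compound #57, an SHP2 inhibitor, without or with AZD8055. Each cell line had 1 library per condition, so that a value within a cell line has no replicate and the cell lines serve as the replicates of the comparison.

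mTOR is the catalytic kinase of a pair of complexes, and AZD8055 competes with ATP in both. mTORC1 promotes the building of ribosomes, translation and the synthesis of nucleotides, lipids and amino acids, in part through ATF4, SREBP and HIF1A, and holds back autophagy and the lysosomal factor TFEB. mTORC2 activates AKT, which keeps FOXO factors out of the nucleus, and active S6 kinase feeds back on the insulin receptor substrates.

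Library size in untreated cells was 10667343 reads for Hep3B, 15968317 for Huh7 and 13025138 for MHCC97H. With AZD8055 it was 12233696, 12039415 and 14256213 reads in the same order. Raw reads of a pair are therefore not on 1 scale, and comparisons rest on log2-fold changes, which are differences of log2(reads scaled to 10000000 per library + 1). For genes with few reads this scale gives too small a change. All 17 hepatocyte markers were in the table, and their summed level was between 5370 and 49374 per 1000000 reads in untreated cells and between 6251 and 42615 with AZD8055, lowest in MHCC97H. Of 26 markers of other liver cells, 8 were in the table and summed to between 293 and 1236 per 1000000 reads in untreated cells and between 352 and 958 with AZD8055. In untreated MHCC97H, 2 of those 8 were at 0 reads. None of either list was called.

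A gene was called changed where limma, fitted to all 12 libraries with cell line and treatment as terms, gave a Benjamini-Hochberg adjusted p under 0.05. With AZD8055, 255 genes (2.21% of those tested) rose and 87 (0.753%) fell, and 3165 had an unadjusted p under 0.05. Every one of the 342 called genes moved the same way in all 3 cell lines. The called genes that rose had a median log2-fold change of 1.03, with medians of 0.86 in Hep3B, 0.998 in Huh7 and 0.97 in MHCC97H. Those that fell changed less, with a median of -0.72. At least a 2-fold change in each cell line was seen for 80 genes upwards (0.693%) and for 5 downwards (0.0433%). Of the calls, 74.6% were upward, but 54.1% of 473 calls were upward with the libraries centred on their medians, since 217 genes then fell and 256 rose.

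These calls rest on the spread over all 12 libraries and on all 3 cell lines. Without Huh7 not 1 gene passed (1476 had an unadjusted p under 0.05), without Hep3B only BMF, and without MHCC97H 109 genes, 56 of them among the 342. The 6 compared libraries alone gave 2 calls, BMF and C8orf4, the latter named after its values were seen. In each of these fits all 342 genes kept their direction. This outcome was fixed in advance, since each of them had moved the same way in all 3 cell lines. The smallest two-sided p that an exact test of 3 pairs can give is 0.25.

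Of the 11 genes described here, called higher with at least 20 reads in the higher library of each pair, YPEL1 and BMF had the largest changes common to all 3 cell lines. YPEL1, a member of the yippee-like family of nuclear proteins, had 8 reads in untreated Hep3B and 78 with AZD8055, 30 and 140 in Huh7, and 4 and 65 in MHCC97H. Its log2-fold change was 3.01 ± 0.31 (SE, 3 pairs; limma adjusted p = 0.00922), with 95% Clopper-Pearson intervals of the ratio of reads from 2.04 to 4.35 in Hep3B, 2.05 to 3.25 in Huh7 and 2.47 to 5.81 in MHCC97H on the log2 scale. BMF, a BH3-only member of the BCL2 family that promotes apoptosis, went from 654 to 3542 reads in Hep3B, from 520 to 2526 in Huh7 and from 220 to 1722 in MHCC97H. The 3 treated libraries lay above all untreated ones for BMF, and its log2-fold change of 2.58 ± 0.15 had the smallest adjusted p of the table (9.59e-05). BMF lies on chromosome 15 of hg38 from 40087890 to 40108892, and YPEL1 on chromosome 22 from 21697536 to 21735794.

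IRS2, which couples the insulin and IGF1 receptors to PI3K, rose from 394 to 1226 reads in Hep3B, from 110 to 879 in Huh7 and from 17 to 152 in MHCC97H (log2-fold change 2.59 ± 0.37, adjusted p = 0.0268). The untreated level differed widely between the cell lines, and the rise was steeper in Huh7 (3.39) and MHCC97H (2.94) than in Hep3B (1.44), a difference that was not tested. IRS2 is also a FOXO target. SLC38A2, a sodium-coupled transporter of neutral amino acids, rose from 6819 to 16252 reads in Hep3B, from 11160 to 19587 in Huh7 and from 7951 to 15622 in MHCC97H, the narrowest range of levels among these genes (1.04 ± 0.15, adjusted p = 0.0268). IRS2 was called in none of the fits that left out a cell line, and SLC38A2 was called without MHCC97H but not without Hep3B or Huh7.

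**Figure D1:**
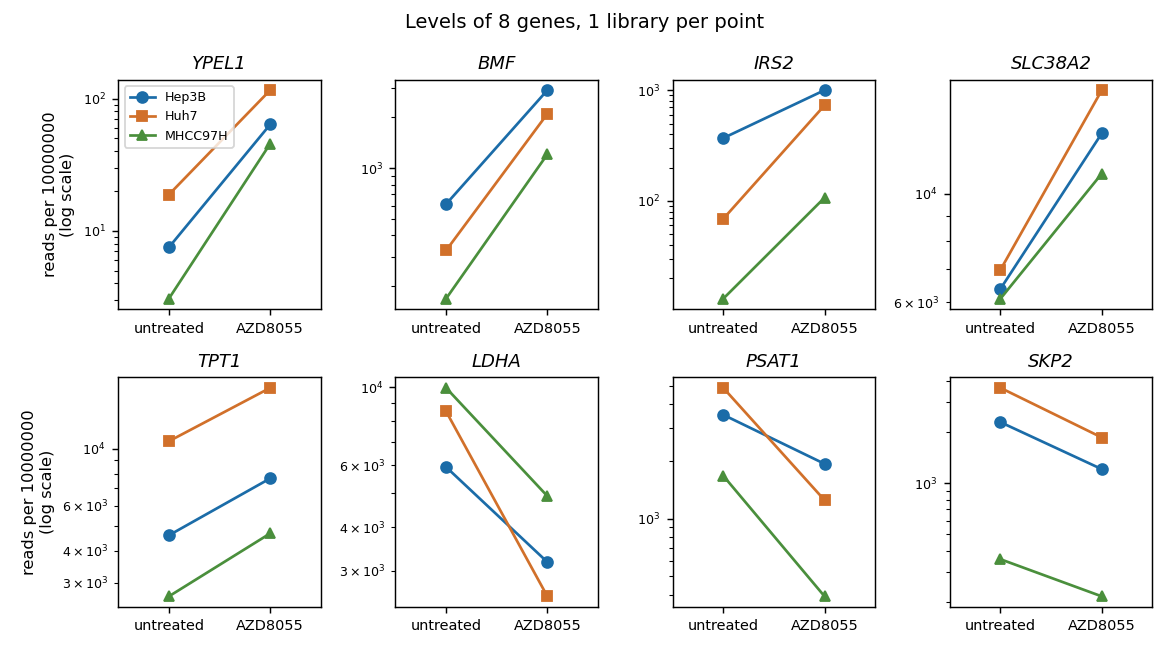
Reads scaled to 10000000 per library in the untreated and the AZD8055 library of each cell line (log axes, 1 library per point, lines join the pair) for 8 genes. YPEL1, BMF, IRS2, SLC38A2 and TPT1 were higher and LDHA, PSAT1 and SKP2 lower with AZD8055 in all 3 pairs.

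The other genes with the largest changes common to the 3 cell lines had varied functions. MAP3K12, a kinase upstream of JNK, changed by between 2.02 and 2.22 in the 3 cell lines, the narrowest range of the 11 genes described after that of GPR176 (2.12 ± 0.38, adjusted p = 0.0339). The focal adhesion gene TNS1 (2.39 ± 0.36, adjusted p = 0.0268), the phospholipase gene PLA2G4C (2.28 ± 0.33, 0.0268) and ZSWIM4, a zinc finger gene (2.10 ± 0.26, 0.0195), also rose. The axonemal dynein gene DNAH5, the transcription factor gene EBF4, the growth factor gene PDGFB, the elastic fibre gene EFEMP2 and the orphan receptor gene GPR176 rose as well, with log2-fold changes between 1.53 (GPR176) and 2.49 (DNAH5). TNS1, PLA2G4C, ZSWIM4 and EFEMP2 were still called without MHCC97H, and none of these genes without Hep3B or Huh7.

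Among the genes that fell, the glycine transporter gene SLC6A9 went from 108 to 62 reads in Hep3B, from 387 to 46 in Huh7 and from 88 to 27 in MHCC97H (-1.80 ± 0.33, adjusted p = 0.0361). KBTBD8, an adaptor of CUL3 ubiquitin ligases, fell by 1.42 and the calcium sensor gene VSNL1 fell by 1.21. XPOT, which exports tRNA from the nucleus, fell from 3434 to 2221 reads in Hep3B, from 5080 to 1753 in Huh7 and from 5992 to 3062 in MHCC97H (-1.02 ± 0.19, adjusted p = 0.0375). SKP2, the F-box protein that marks the CDK inhibitor p27 for degradation, fell from 2438 to 1477, from 5830 to 2237 and from 464 to 306 reads in the same order (-0.87 ± 0.15, adjusted p = 0.0315). The mitochondrial glutaredoxin gene GLRX2, the sodium pump subunit gene ATP1B3 and GCH1, the first enzyme of tetrahydrobiopterin synthesis, fell by 1.04, 0.82 and 0.87. Without MHCC97H, VSNL1, XPOT and SKP2 were still called, and without Hep3B or Huh7 none was.

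**Figure D2:**
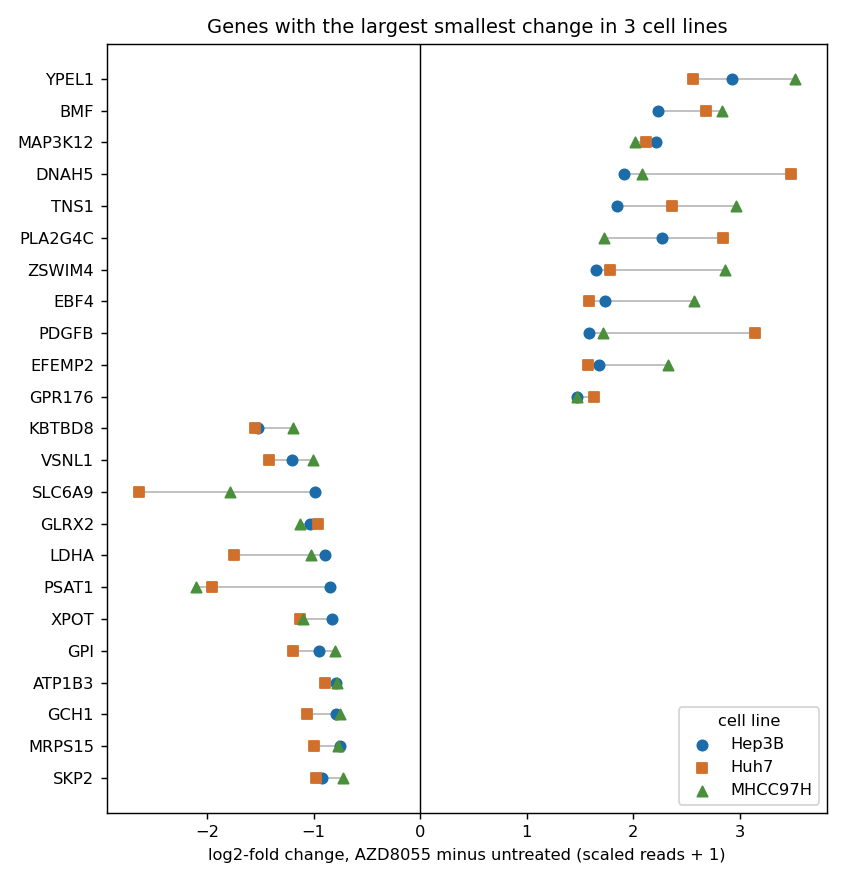
Log2-fold change of AZD8055 against untreated in Hep3B (circles), Huh7 (squares) and MHCC97H (triangles) for 11 called genes that rose and 12 that fell. They were chosen for a large weakest change, and 1 gene that met the rule is not reported. The rises reach from 1.47 (GPR176 in MHCC97H) to 3.52 (YPEL1 in MHCC97H), and the falls from -0.73 (SKP2 in MHCC97H) to -2.63 (SLC6A9 in Huh7).

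The combination and compound #57 libraries allowed the same drug to be compared with its own control in cells that share no library with the first comparison, although they share the cell lines and the fitted spread. All 255 genes that rose with AZD8055 alone also had a higher mean with AZD8055 in the presence of compound #57, 244 of them in each of the 3 cell lines. Of the 87 that fell, all had a lower mean and 86 were lower in each cell line. Over all genes, 81.8% had the same direction of both means and 32.5% the same sign in all 6 pairs. Every call had the same sign in all 3 cell lines with AZD8055 alone, as did 6248 genes of the table. With compound #57 present, 5708 of these 6248 genes kept the direction of the mean, and 3752 the sign in each cell line. In the presence of compound #57, 302 genes were called higher (2.62%) and 181 lower (1.57%), but 178 and 153 without MHCC97H, 1 and 0 without Hep3B, and none without Huh7. The shared calls were 182, or 53.2% of the 342 and 37.7% of the 483, with none in opposite directions. The limma interaction contrast between the effects of AZD8055 without and with compound #57 called no gene, and 178 had an unadjusted p under 0.05. The SE of this contrast is larger than that of either effect, so that differences between the effects can be missed. BMF had a log2-fold change of 1.90 in the presence of compound #57 (adjusted p = 0.00176), YPEL1 of 2.27 (0.014), SKP2 of -1.33 (0.00836) and PSAT1 of -2.29 (0.0156).

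**Figure D3:**
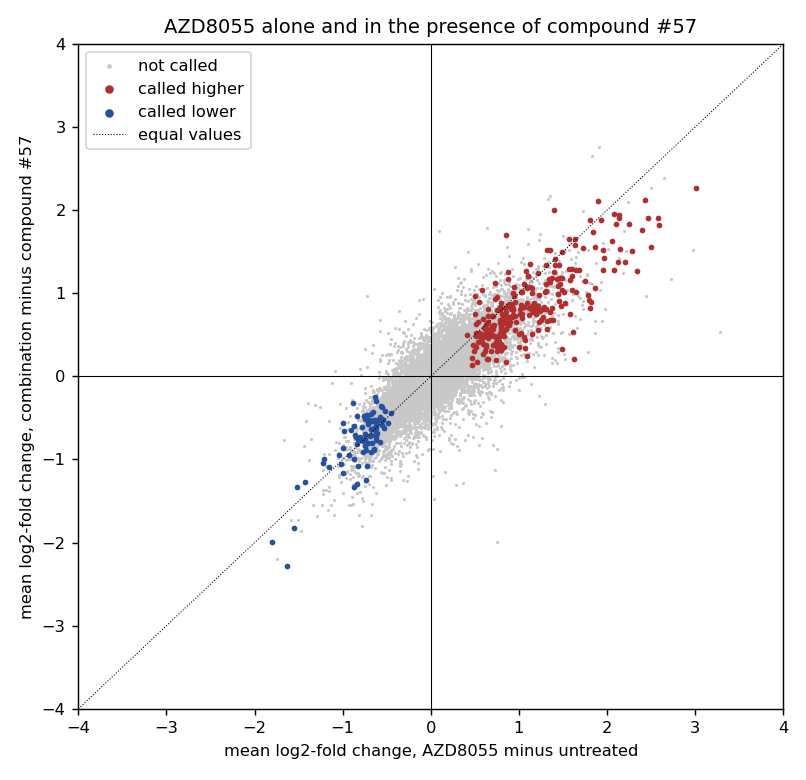
Mean log2-fold change over the 3 cell lines of AZD8055 against untreated (x axis) and of the combination against compound #57 (y axis), 1 point per gene, with the genes called on the x axis in red (255 higher) and blue (87 lower). All 342 called genes lie in the 2 quadrants with equal signs.

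In glycolysis, limma called 6 of 23 members lower (26.1% called, against 2.96% of all genes) and none higher. They were GPI, PGAM1, TPI1, PGK1, PKM and LDHA, all enzymes of the pathway from glucose 6-phosphate to lactate. limma-voom called 8 members lower and 1 higher, PFKFB3, which was named after its values were seen. The fit on centred libraries called 9 lower and 0 higher. LDHA, which makes lactate from pyruvate, went from 6325 to 3894 reads in Hep3B, from 13644 to 3061 in Huh7 and from 12976 to 6982 in MHCC97H (-1.22 ± 0.24, adjusted p = 0.039). GPI, the isomerase that follows hexokinase, had 2505 and 1485 reads in Hep3B, 3300 and 1086 in Huh7, and 7202 and 4529 in MHCC97H (-0.98 ± 0.14, adjusted p = 0.0268). PGK1 had nearly the same log2-fold change in the 3 cell lines, between -0.51 and -0.57, while PKM ranged from -0.42 in Hep3B to -1.11 in Huh7. The median of the list was -0.47, against 0.03 for all genes, with -0.42 in Hep3B, -0.85 in Huh7 and -0.32 in MHCC97H. Of the members, 12 were lower in each cell line (52.2%, against 25.7% of all genes) and 3 higher in each (13.0%, against 28.4%). Without MHCC97H only GPI was called, and without Huh7 or Hep3B no member. HIF1A itself, a factor that drives this pathway, had log2-fold changes of 0.00 in Hep3B, 0.49 in Huh7 and -0.61 in MHCC97H, and in the hypoxia list of 20 (median -0.06) the histone demethylase gene KDM3A was the only call and rose (0.51 ± 0.11, adjusted p = 0.0451), a call lost with any 1 cell line left out.

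Of 33 genes of amino acid synthesis and transport, many of them targets of ATF4, 16 were lower in each cell line (48.5%, against 25.7% of all genes) and 3 higher in each (9.09%, against 28.4%). PSAT1, the aminotransferase of serine synthesis, fell from 3740 to 2379 reads in Hep3B, from 7767 to 1509 in Huh7 and from 2193 to 558 in MHCC97H (-1.64 ± 0.32, adjusted p = 0.0382). SHMT2, which passes the serine carbon to mitochondrial folate, fell by 0.995 ± 0.18, and GPT2, the mitochondrial alanine aminotransferase, fell by 0.66 ± 0.15. With SLC6A9, 4 members thus fell and 1, SLC38A2, rose (15.2% called, against 2.96% of all genes). The median of the list was -0.47, with -0.51 in MHCC97H, -0.75 in Huh7 and -0.06 in Hep3B, and 13 members were lower and 2 higher at an unadjusted p under 0.05. ATF4 itself had log2-fold changes of 0.16 in Hep3B, -0.25 in Huh7 and -0.34 in MHCC97H (adjusted p = 0.453). Without MHCC97H only SLC38A2 was called in the list, and without Huh7 or Hep3B no member.

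All 16 cytosolic tRNA synthetases of the table were lower in each cell line, against 25.7% of all genes. limma called none of them, 13 had an unadjusted p under 0.05, and limma-voom called 4 lower and the fit on centred libraries 6. NARS, which charges tRNA with asparagine, had log2-fold changes of -0.45, -0.53 and -0.57 in Hep3B, Huh7 and MHCC97H (adjusted p = 0.0536), and AARS, which charges it with alanine, of -0.25, -0.85 and -1.36 (adjusted p = 0.054). The list had a median of -0.56, with -0.30 in Hep3B, -0.62 in Huh7 and -0.73 in MHCC97H.

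Of 32 genes of the pentose phosphate pathway and nucleotide synthesis, IMPDH1, the enzyme at the branch to guanine nucleotides, fell from 511 to 339 reads in Hep3B, from 863 to 294 in Huh7 and from 2564 to 1798 in MHCC97H (-0.86 ± 0.17, adjusted p = 0.039). It was the only call by limma (3.12% of the list, against 2.96% of all genes). limma-voom called 2 members lower and the fit on centred libraries 4. IMPDH1 was called under none of the fits that left out a cell line. With 26 of 32, 81.2% of this list was lower in each cell line, against 25.7% of all genes. In cholesterol synthesis and uptake, limma called none of 26 members (3 lower and 1 higher at an unadjusted p under 0.05, none by limma-voom), while 20 were lower in each cell line. Its members with the smallest p were EBP, a sterol isomerase (-0.82 ± 0.23, adjusted p = 0.0692), and ACAT2, which makes acetoacetyl-CoA (-1.10 ± 0.35, 0.0875). In fatty acid synthesis none of 22 was called by limma (5 lower at an unadjusted p under 0.05) or by limma-voom. ME1, a source of NADPH, had a value of -0.58 and ELOVL6, an elongase, of -0.82. SREBF1 changed by 0.17 in Hep3B, -0.57 in Huh7 and 0.25 in MHCC97H, and SREBF2 by 0.39, 0.31 and 0.41, neither of them called.

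Of the 77 cytosolic ribosomal proteins, 44 were higher in each cell line (57.1%, against 28.4% of all genes), 7 were lower in each (9.09%, against 25.7%), and the median was 0.18 (0.27 in Hep3B, 0.20 in Huh7 and 0.03 in MHCC97H). RPL13 and RPL13A, both of the large subunit, were the 2 members called, 2.60% of the list, close to the 2.96% called over all genes. RPL13A had 8768 and 14725 reads in untreated and treated Hep3B, 10642 and 11263 in Huh7, and 10834 and 16564 in MHCC97H, a log2-fold change of 0.51 ± 0.11 (adjusted p = 0.0462), and that of RPL13 was 0.51 ± 0.11 (0.0452). In the presence of compound #57, AZD8055 gave a median of 0.56 over the list, and 40 members rose, where 2.62% of all genes did, 29 of the list without MHCC97H and none without Hep3B or Huh7. Among 34 translation factors, EIF3L (0.55 ± 0.11, adjusted p = 0.0382), a subunit of the factor that loads mRNA on the small subunit, and EIF4B (0.58 ± 0.13, 0.0442), which assists the cap helicase and is itself phosphorylated by S6 kinase, rose (5.88% called), while 14 members were lower in each cell line and the median was -0.06. None of these genes was called with any 1 cell line left out. Ribosomal protein genes have many processed pseudogenes, and how the authors counted reads that match several places is not given in the sources used here.

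Messenger RNAs of ribosomal proteins and of several translation factors begin with a C followed by a run of pyrimidines, the terminal oligopyrimidine (TOP) motif through which mTORC1 controls their translation. The starts of 6 called genes that rose are shown because they carry such a run. EIF4B, GLTSCR2 (now NOP53, a ribosome assembly factor), the growth-related gene TPT1 and SLC25A6, an ADP/ATP carrier, stood beside both ribosomal proteins, and TPT1, GLTSCR2 and SLC25A6 were chosen after their values were seen. Each line gives 10 bases before and 20 bases from a RefSeq transcript start (GRCh38.p14), on the strand of the gene, with the pyrimidine run at the start in capitals.
RPL13A: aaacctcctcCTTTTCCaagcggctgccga
RPL13: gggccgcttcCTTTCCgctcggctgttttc
TPT1: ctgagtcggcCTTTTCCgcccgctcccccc
EIF4B: tcatccgggtCTTTTgcgttctctttccct
GLTSCR2: tggctgagttCTTCCTTTgacaagatggcg
SLC25A6: gctgctccgtCCTTTCggtccaggcggcgg
These windows lie at chr19:49487598-49487627, chr16:89560672-89560701, chr13:45341164-45341193 (minus strand), chr12:53006446-53006475, chr19:47745536-47745565 and chrX:1392094-1392123 (minus strand), in the order of the lines. The run was 7 bases long in RPL13A and TPT1 and 8 in GLTSCR2.

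TPT1 went from 4901 to 9374 reads in Hep3B, from 17072 to 20857 in Huh7 and from 3456 to 6656 in MHCC97H, with log2-fold changes of 0.74, 0.70 and 0.82 (limma adjusted p = 0.0268). SLC25A6 had 1776 and 3669, 3692 and 5200, and 2275 and 4540 reads in the same order (0.87 ± 0.10, adjusted p = 0.0154), and GLTSCR2 had 1215 and 2596, 1231 and 1859, and 1103 and 3369 (1.13 ± 0.14, 0.0221). GLTSCR2 and SLC25A6 were called without MHCC97H, TPT1 was not, and none was called without Hep3B or Huh7. A start with C and at least 4 further pyrimidines, at any RefSeq start of the gene, was found in 46 of 62 cytosolic ribosomal protein genes with a sequence (74.2%), in 10 of 26 translation factors (38.5%) and in 716 of 9266 genes of the table (7.73%). It was found in 24 of 209 called genes that rose (11.5%) and in 1 of 74 that fell (1.35%). Among the 670 genes with such a start that are no cytosolic ribosomal protein, the median log2-fold change was 0.06, against 0.02 for the 8550 genes without one, and the definition of this start was chosen after the data were seen.

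Of 52 genes of ribosome biogenesis and RNA polymerase I, 42 were lower in each cell line (80.8%, against 25.7% of all genes), with medians of -0.29 in Hep3B, -0.44 in Huh7 and -0.52 in MHCC97H. limma called none of them, 23 were lower at an unadjusted p under 0.05, limma-voom called 1 and the fit on centred libraries 3. NOP2, a methyltransferase of ribosomal RNA, had a log2-fold change of -0.73 ± 0.18 (adjusted p = 0.0561), and LTV1, which helps to assemble the small subunit, of -0.86 ± 0.22 (0.0561). Of 73 mitochondrial ribosomal proteins, MRPS15, MRPS34 and MRPL18 fell (4.11% called, against 2.96% of all genes), 53 were lower in each cell line (72.6%) and none higher in each. MRPS15 went from 811 to 553 reads in Hep3B, from 1075 to 405 in Huh7 and from 663 to 425 in MHCC97H (-0.84 ± 0.16, adjusted p = 0.0361). With centred libraries 8 mitochondrial ribosomal proteins fell, without MHCC97H only MRPS34, and without Hep3B or Huh7 none.

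The proteasome was the list with the largest share of members lower in each cell line after the tRNA synthetases, 34 of 37 (91.9%, against 25.7% of all genes). PSMD2 and PSMD12, of the regulatory particle, and the activator PSME3 fell (8.11% called, against 2.96% of all genes), with log2-fold changes of -0.64 ± 0.13 (adjusted p = 0.039), -0.67 ± 0.15 (0.0484) and -0.68 ± 0.14 (0.0399). PSMD2 had 6734 and 5617 reads in Hep3B, 7822 and 3561 in Huh7, and 4632 and 3029 in MHCC97H. With centred libraries 9 members fell, and none was called with any 1 cell line left out. The 28 chaperones outside the ER held no call by limma (19 lower at an unadjusted p under 0.05, 1 by limma-voom), and 21 were lower in each cell line (75%). HSPA4, an exchange factor of HSP70, and HSPA9, the HSP70 of mitochondria, had values of -0.53 and -0.64. Among 30 ER chaperones and genes of the unfolded protein response, 16 were lower in each cell line (53.3%). The only call by limma (3.33% of the list) was PPP1R15A, which directs the dephosphorylation of eIF2α. It rose from 308 to 1018 reads in Hep3B, from 598 to 1619 in Huh7 and from 1429 to 2300 in MHCC97H (1.31 ± 0.29, adjusted p = 0.0467). limma-voom called ATF6 and PPP1R15A higher and PDIA4 and SDF2L1 lower. The fit on centred libraries called PPP1R15A higher and PDIA4 and SDF2L1 lower. ATF6, PDIA4 and SDF2L1 were named after their values were seen. PPP1R15A was called without MHCC97H but not without Hep3B or Huh7.

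**Figure D4:**
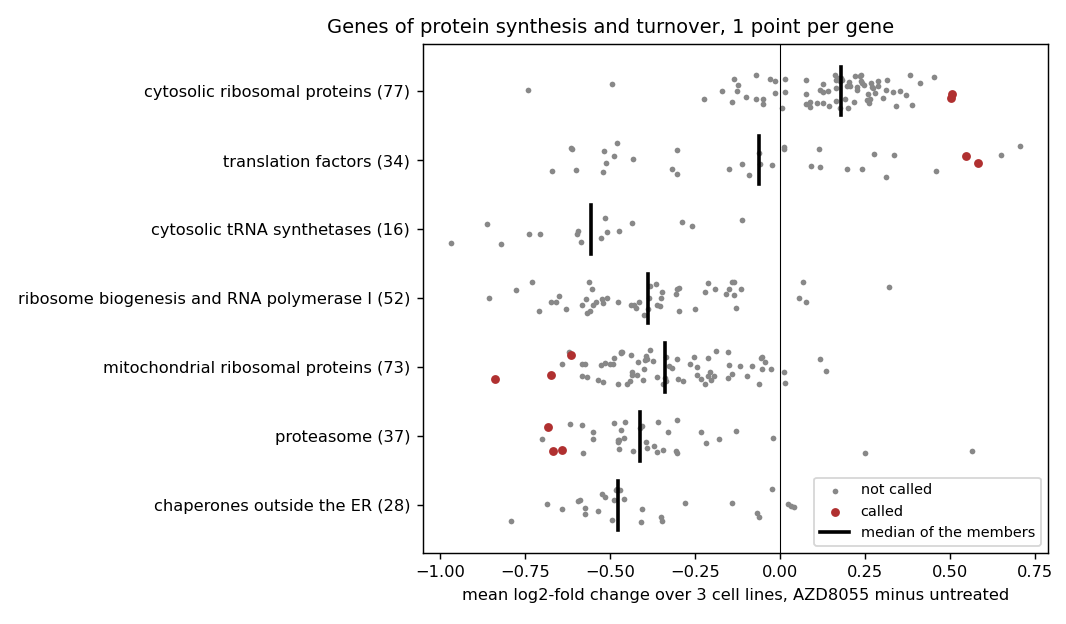
Mean log2-fold change over the 3 cell lines for each member (points, called genes in red) of 7 lists of protein synthesis and turnover, with the median of each list as a bar. Cytosolic ribosomal proteins have a median of 0.18, and tRNA synthetases, ribosome biogenesis, mitochondrial ribosomal proteins, proteasome and chaperones have medians between -0.34 and -0.56.

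In oxidative phosphorylation, 51 of 74 nuclear genes were lower in each cell line (68.9%, against 25.7% of all genes). The only call by limma, 1.35% of the list against 2.96% of all genes, was ATP5G3, which encodes subunit c of ATP synthase. It fell from 1770 to 1424 reads in Hep3B, from 3147 to 1511 in Huh7 and from 1560 to 1017 in MHCC97H (-0.64 ± 0.10, adjusted p = 0.0304). limma-voom called 6 members lower and the fit on centred libraries 8, and without any 1 cell line none was called. The 15 genes encoded in mitochondria had no common direction, with medians of -0.26 in Hep3B, -0.70 in Huh7 and 0.37 in MHCC97H, and limma and limma-voom called none of them (1 lower at an unadjusted p under 0.05). MT-ND6 and MT-ND2, subunits of complex I, had mean values of -0.66 and -0.46.

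The 46 DNA replication genes had medians of -0.09 in Hep3B, -0.27 in Huh7 and -1.12 in MHCC97H, and 32 were lower in each cell line (69.6%, against 25.7% of all genes). Their median over the cell lines was -0.50, or -0.19 without MHCC97H. limma and limma-voom called none, and 17 were lower at an unadjusted p under 0.05. ORC1, of the origin recognition complex, had log2-fold changes of -0.75, -1.08 and -1.79 in Hep3B, Huh7 and MHCC97H (adjusted p = 0.0587), and LIG1, the ligase of lagging strands, of -0.29, -0.32 and -0.87. Of 55 mitotic genes, 41 were lower in each cell line (74.5%, median -0.42, or -0.24 without MHCC97H). The only call by limma, 1.82% of the list against 2.96% of all genes, was AURKA, the kinase of the spindle poles. It fell from 1336 to 989, from 2265 to 906 and from 1703 to 1067 reads (-0.78 ± 0.16, adjusted p = 0.0397), a call lost without any 1 cell line. limma-voom and the fit on centred libraries each called 3 members lower. In the list of G1 cyclins, CDKs and the MYC network, SKP2 was the only call of 23 (4.35%, against 2.96% of all genes). MYC itself had values of 0.31, -0.17 and 0.15 in Hep3B, Huh7 and MHCC97H.

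FOXO factors and their targets had a median of 0.48, which was 0.90 without Hep3B and 0.32 without MHCC97H, and 12 of 22 were higher in each cell line (54.5%, against 28.4% of all genes) with none lower in each. Of them, 3 rose (2.21% of all genes did). Besides IRS2 and a receptor kinase, FBXO32, a muscle atrophy ubiquitin ligase, rose from 7 to 16 reads in Hep3B, from 8 to 17 in Huh7 and from 230 to 981 in MHCC97H (1.40 ± 0.28, adjusted p = 0.0394), so that its reads were few in Hep3B and Huh7. FOXO1 had values of 0.31, 1.29 and 0.90 in Hep3B, Huh7 and MHCC97H (adjusted p = 0.109), and FOXO3 of 0.12, 0.50 and 0.83 (0.106). In the list of growth arrest and quiescence, 2 of 34 members rose (5.88%), YPEL1 and its relative YPEL2 (1.86 ± 0.35, adjusted p = 0.0375). YPEL2 went from 256 to 440 reads in Hep3B, from 219 to 740 in Huh7 and from 40 to 324 in MHCC97H. In the BCL2 family of 15, BMF and BOK, a BAX-like effector, rose (13.3% called, against 2.96% of all genes), the latter from 185 to 419, from 448 to 1178 and from 358 to 730 reads (1.22 ± 0.21, adjusted p = 0.0321). Without MHCC97H the FOXO list held 1 call, CAT, which was lower, and the growth arrest list YPEL1 and TOB1, the latter lower; TOB1 was also called lower with centred libraries, and CAT and TOB1 were named after their values were seen. BMF was still called without MHCC97H, also without Hep3B, and FBXO32, YPEL2 and BOK under none of the fits that left out a cell line.

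Extracellular matrix genes and integrins had a median of 0.58, with 5 of 52 called (9.62%, against 2.96% of all genes), each of them higher, and 27 higher in each cell line (51.9%, against 28.4%). FN1, fibronectin, rose from 20718 to 35112 reads in Hep3B, from 96117 to 154099 in Huh7 and from 105862 to 241665 in MHCC97H (0.90 ± 0.20, adjusted p = 0.0467). ITGAV, the αV integrin that binds fibronectin and vitronectin, rose from 4022 to 10669, from 9240 to 21298 and from 5305 to 8296 reads (1.11 ± 0.22, 0.039). The laminin gene LAMB2 (1.30 ± 0.27), the thrombospondin gene THBS3 (1.69 ± 0.26) and SPARC (1.49 ± 0.28), which binds collagen, rose as well, although SPARC had only 3 and 12 reads in Hep3B (95% interval of the log2 ratio -0.09 to 4.27) and a value of 0.33 in the presence of compound #57. Of the markers of other liver cells, the fibroblast gene COL1A1 had 30 and 43 reads in Hep3B, 147 and 1069 in Huh7, and 13 and 18 in MHCC97H (log2-fold changes 0.31, 3.26 and 0.31), and the cholangiocyte gene KRT19 had values of 1.06, 0.92 and 0.26. In Huh7, 4 of the 8 markers were lower and their summed level went from 1236 to 776 per 1000000 reads. Their part in the matrix result was not tested. Without MHCC97H only ITGAV was called, and without Hep3B or Huh7 no member.

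Among 40 genes of the interferon response and antigen presentation, 4 rose, where 2.21% of all genes did, and none fell. Of the 40, 24 were higher in each cell line (60.0%, against 28.4% of all genes). IFITM3, which blocks viral entry, went from 1451 to 4230 reads in Hep3B, from 173 to 234 in Huh7 and from 671 to 1369 in MHCC97H (1.03 ± 0.23, adjusted p = 0.0477), and its near-identical neighbour IFITM2 from 250 to 664, from 20 to 49 and from 45 to 197 (1.60 ± 0.31, 0.0382). Reads of IFITM2 and IFITM3 may be split between them. IRF1, a transcription factor of this response, and SP100, of nuclear bodies, rose by 0.79 ± 0.16 (0.0394) and 0.82 ± 0.17 (0.0415). None of the 4 was called with any 1 cell line left out. In the list of ligands and feedback inhibitors of receptor signalling, PDGFB and CISH, an inhibitor of STAT5 signalling (1.32 ± 0.29, adjusted p = 0.0452), were the 2 called of 29 (6.90%, against 2.96% of all genes), and 13 were higher in each cell line with none lower in each. PDGFB went from 70 to 244 reads in Hep3B, from 42 to 289 in Huh7 and from 26 to 97 in MHCC97H (2.15 ± 0.46, 0.043). PDGFB was not called by limma-voom, and neither gene with any 1 cell line left out. Named after their values were seen, AREG, PDGFC and SOCS3 were called higher without MHCC97H, and PDGFC also by limma-voom.

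Of 62 lysosomal genes, GRN, the progranulin gene, rose (0.96 ± 0.21, adjusted p = 0.0432) and GLA, the α-galactosidase gene, fell (-0.75 ± 0.12, 0.0283), 3.23% of the list against 2.96% of all genes. ATP6V1A, a subunit of the proton pump named after its values were seen, was called lower with centred libraries and without MHCC97H. The list had a median of 0.12, 10 members higher and 3 lower at an unadjusted p under 0.05, and 23 higher in each cell line (37.1%). GRN had 1759 and 3690 reads in Hep3B, 2047 and 2295 in Huh7, and 2326 and 6923 in MHCC97H. Of 43 autophagy genes, 21 were higher in each cell line (48.8%, against 28.4% of all genes), 17 were higher and 3 lower at an unadjusted p under 0.05, and the median was 0.23, or 0.12 without MHCC97H. ATG14, a subunit of the PI3-kinase that starts autophagosomes, was the only call by limma (2.33% of the list). It rose from 215 to 360 reads in Hep3B, from 498 to 668 in Huh7 and from 200 to 381 in MHCC97H (0.72 ± 0.12, adjusted p = 0.0315). The calls of GRN, GLA and ATG14 were lost with any 1 cell line left out, while limma-voom called 4 autophagy genes. TFEB had values of 0.28, -0.77 and -0.92 in Hep3B, Huh7 and MHCC97H, with 26 and 11 reads in Huh7.

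TFEB and its relatives bind CACGTGAC, the CLEAR element, and its core CACGTG is the E-box that MYC also binds. The matches in the promoters of ATG14 and LDHA are shown in capitals as an example from either direction, in RefSeq sequence (GRCh38.p14) with 20 bases before the first match and 20 after the last (13 in ATG14, where the transcript starts), at chr14:55411831-55411871 (minus strand) and chr11:18394358-18394501. That of ATG14 begins 21 bases before the start, and both of LDHA 185 and 87 bases before it.
ATG14: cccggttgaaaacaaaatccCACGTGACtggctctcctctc
LDHA: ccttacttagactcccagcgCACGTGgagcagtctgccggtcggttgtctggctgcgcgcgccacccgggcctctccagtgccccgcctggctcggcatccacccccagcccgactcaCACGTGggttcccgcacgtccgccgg
On either strand, from 250 bases before to 50 after any RefSeq start, CACGTG stood in 14.4% of 209 genes that rose, in 14.9% of 74 that fell and in 13.0% of 9266 in all. CACGTGAC, which contains it, stood in 7.66%, 6.76% and 5.62%. The forkhead motif GTAAACA stood in 7.66% of the genes that rose (16), in 4.05% of those that fell and in 3.64% in all, TGATGCAA, an ATF4 motif, in 0.957%, 0% and 0.712%, and the sterol motif TCACNCCAC in 1.91%, 4.05% and 1.48%. These shares are descriptions and were not tested.

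None of 33 members of the mTOR complexes and their regulators was called by limma or limma-voom (4 higher and 3 lower at an unadjusted p under 0.05), and the median was 0.03. MTOR had values of 0.08, -0.27 and -0.32 in Hep3B, Huh7 and MHCC97H, RPTOR of mTORC1 had -0.03, -0.34 and -0.13, and MLST8 of both complexes had -0.23, -0.43 and -0.14. RICTOR of mTORC2 went from 719 to 917 reads in Hep3B, from 1810 to 2459 in Huh7 and from 851 to 1846 in MHCC97H (0.66 ± 0.17, adjusted p = 0.0575), and TSC2, which restrains mTORC1, had 0.52 ± 0.13 (0.0578). In the list of insulin and PI3K signalling, IRS2 was the only call of 18 (5.56%, against 2.96% of all genes).

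ALB, albumin, had 225012 and 146259 reads in Hep3B, 65025 and 28743 in Huh7, and 395 and 203 in MHCC97H (-0.89 ± 0.24, adjusted p = 0.0618), and RBP4, the retinol carrier, had -0.97 ± 0.23 (0.0518). limma called none of 44 secreted liver proteins (5 lower and 1 higher at an unadjusted p under 0.05), and limma-voom and the fit on centred libraries 1 each. The nuclear receptor gene RORA rose from 98 to 187 reads in Hep3B, from 46 to 102 in Huh7 and from 21 to 72 in MHCC97H (1.28 ± 0.25, adjusted p = 0.039), the only call of 31 liver transcription factors and nuclear receptors (3.23%, against 2.96% of all genes). Of 45 genes of fatty acid oxidation and the peroxisome, ACOX3 rose (0.86 ± 0.17, 0.039) and HSD17B4 fell (-0.62 ± 0.13, 0.0397), both of them enzymes of peroxisomal β-oxidation and together 4.44% of the list. None of these 3 calls held with any 1 cell line left out. In drug metabolism limma called none of 40 (8 lower and 4 higher at an unadjusted p under 0.05), limma-voom 1 and the fit on centred libraries 2. TPMT, a thiopurine methyltransferase, had -0.82 and CYP4V2, a fatty acid hydroxylase, 1.27. KRT8, a keratin of hepatocytes, had 0.49 ± 0.15 (0.0832).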

How the data were processed

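RNA of 3 HCC cell lines under 4 treatments was sequenced with the TruSeq kit (12 libraries), and the authors aligned the reads to hg38. The values deposited by the authors are on the log2 scale, with 1 value for each gene in each library. The counting and normalization are not given in the sources used here. Each value equals log2(reads scaled to 10000000 per library + 1) + 0.001, with 0 reads at 0.001, and 100.0% of the values then gave whole reads within 0.01, from 10667343 to 15968317 reads per library. Log2 values were fitted with limma 3.58.1 (lmFit, eBayes with trend; R 4.3.3) with treatment and cell line as terms, and genes with a Benjamini-Hochberg adjusted p under 0.05 were called. Libraries of 1 cell line pair by the cell line itself, and the deviations of its untreated and AZD8055 library from the group means correlated over genes at 0.94 to 0.95. As p-values rest on 1 library per cell line and condition, they measure the spread left after the cell line and treatment terms, over all 4 treatments. This spread includes differences of a treatment's effect between cell lines, but not differences in level between cell lines. Intervals of read ratios are Clopper-Pearson intervals (scipy 1.17.1) and cover counting error only. Of 11548 genes, 18 bore spreadsheet dates and were tested without a name, and 3 symbols stood on 2 rows each.

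Members of 35 lists written from general knowledge (1401 entries) were matched by symbol, 38 of them by a RefSeq synonym, and 1250 were found. The gene lists, tests and named genes were chosen with earlier results of these data known. Named were the 12 called genes of either direction whose weakest change in the 3 cell lines was largest and at least 20 reads in the higher library of each pair, up to 6 called members of each list or else the 2 with the smallest p, the 6 genes with the widest opposite changes and at least 50 reads, and 12 genes by name. Receptor tyrosine kinases were not named, and 1 other gene that met this rule is not reported here. RefSeq promoters were matched to 9266 genes (80.2%), and gene positions came from GENCODE release 44. The alternatives were adding 10 instead of 1, the upper 75% of genes by mean, centred libraries, no cell line term, only the 6 libraries, limma-voom with upper-quartile scaling on the whole reads, and each cell line left out. The fit was tested on simulated data with independent normal noise. It called 11.9% of genes with a simulated log2 change of 0.5 in either direction, 58.2% of those with 1 and 83.3% of those with 2. Small changes are thus often not called. Python 3.11.15 with pandas 2.3.3 was used.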

Additional observations from a re-analysis of the deposited data

Results flagged for a closer look

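A few genes rose at least 2-fold in 1 cell line and fell at least 2-fold in another, and the 6 with the widest range are given here with no test of the difference. AREG, an EGFR ligand, went from 90 to 808 reads in Hep3B and from 18 to 174 in Huh7, but from 238 to 60 in MHCC97H (log2-fold changes 2.95, 3.57 and -2.09), a range of 5.66 on the log2 scale. The heparan sulfate proteoglycan gene GPC1 went from 439 to 773, from 15 to 91 and from 3411 to 1674 reads in the same order (0.62, 2.88 and -1.16, range 4.04). The nuclear receptor gene NR4A2 was lower in Huh7 (409 to 128 reads, -1.26) and higher in MHCC97H (12 to 65, 2.19), with a range of 3.45. AADAC, a liver esterase, fell from 89 to 54 reads in Hep3B and from 89 to 22 in Huh7 and rose from 89 to 281 in MHCC97H (-0.90, -1.56 and 1.51, range 3.07). CAV1, of caveolae, was at 135 and 302 reads in Huh7 (1.56) and at 116522 and 63019 in MHCC97H (-1.02, range 2.58), and the formin gene DIAPH3 at 964 and 1554 in Huh7 (1.09) and at 170 and 81 in MHCC97H (-1.19, range 2.28). In all, 32 genes had such opposite changes, 8 of them with at least 50 reads in the higher library of every pair. In 5 of the 6, MHCC97H moved against Huh7 with Hep3B on the side of Huh7 in sign, and MHCC97H is the cell line collected at 24 h, and effects of time and of the cell line cannot be told apart.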

How the results depend on the processing

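The direction of all 342 calls was kept under every alternative that tested them, while the number of calls was not. Each call had the same sign in all 3 cell lines, so that leaving out 1 of them could not turn its direction. Estimates without the cell line term or from the 6 libraries alone equal those of the main fit by design, so that direction could not turn there either. Against 255 genes higher and 87 lower, the fit without the cell line term, that is without the pairing of libraries (no replicate block), called 0 in either direction. The 6 compared libraries alone gave 2 higher and 0 lower. Leaving out 1 cell line gave between 0 and 88 genes higher and between 0 and 21 lower, lowest without Huh7 and highest without MHCC97H. Centred libraries gave 217 lower, and limma-voom 173 lower and 360 higher; they shared 333 and 326 calls with the 342. With 10 added, 319 of the 342 were called. In the 7 fits over both comparisons that made any call, every call had the same direction in the presence of compound #57 (100% of calls). Of 67 named genes that were called, 66 were called by limma-voom (all but PDGFB), 67 with centred libraries, 62 with 10 added (all but GPR176, VSNL1, FBXO32, IFITM3 and FN1) and 16 without MHCC97H. Centring turned the sign of 1 list median, that of the mTOR complexes, from 0.03 to -0.002. Genes under 20 reads in the higher library of a pair, 13 of the calls higher and 0 of those lower, are limited by depth.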

Other observations

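For the AZD8055 effect, the DNA replication list stood at a median (log2) of -1.12 for MHCC97H without and -1.19 with compound #57, against -0.09 and -0.29 in Hep3B. The mitotic list had -0.82 in MHCC97H with AZD8055 alone but -0.35 in the presence of compound #57, and in Huh7 -0.18 and -0.69. The cholesterol list had -1.28 in the presence of compound #57 and -0.22 without it in Hep3B, -1.10 and -0.63 in Huh7, and -0.24 and -0.49 in MHCC97H. These differences were not tested, and effects of time and of the cell line cannot be told apart.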
